A study of Mus musculus with 360 samples.

Results

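Nos1, Grp, Tnc, Scg2 and Nefh are 5 of the 48440 genes counted in single cells of the mouse cochlea, and each is best known from neurons or from the tissue around them. They were chosen by their measured levels, which were higher in cells that carry GAP, a Rosa26 allele with the transcription factor genes Gfi1, Atoh1 and Pou4f3, so their difference between genotypes is described below and not tested. The data held 180 GAP cells (genotype Fbxo2CreERT2::Rosa26-tdTomato::Rosa26-GAP) and 180 control cells (Fbxo2CreERT2::Rosa26-tdTomato). Mice of both genotypes therefore carried the tamoxifen-inducible Cre driven by Fbxo2 and the tdTomato reporter, received tamoxifen at week 3 and were dissociated with papain at week 5. Cells were sorted on tdTomato and EpCAM, a surface protein of epithelial cells, and sequenced with SMART-MATQ. Transcripts were counted by unique molecular identifiers (UMIs). Titles carry a letter and a well number, with GAP cells under letters C (92 cells) and D (88 cells) and control cells under A (91 cells) and B (89 cells). No animal is named, so each genotype counts as 1 sample, and the letter and the genotype cannot be told apart.

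A GAP cell held a median of 28963 UMIs, against 21280 in a control cell. The pooled totals were 5366362 UMIs in GAP cells and 4001274 UMIs in control cells. Levels are given in CPM, the UMIs of a gene scaled to a common total of UMIs pooled over a set of cells, with exact Poisson 95% intervals that cover counting error only. Counts over exons cannot separate the Rosa26 allele's transcripts from those of native Gfi1, Atoh1 and Pou4f3 genes. The authors placed all but 17 GAP and 2 control cells in 9 clusters, of which clusters 1 (54 cells), 2 (51 cells) and 7 (20 cells) held GAP cells only. The authors named cluster 2 reprogrammed hair cells, and clusters 1 and 7 reprogrammed supporting cells.

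Hair cells turn sound into signals and pass them to spiral ganglion neurons, while supporting cells surround them. Atoh1, Gfi1 and Pou4f3 are transcription factors of developing hair cells, and Atoh1 and relatives of Pou4f3 also act in neurons. Nos1 encodes the neuronal nitric oxide synthase, which makes the diffusible messenger nitric oxide. Grp encodes gastrin-releasing peptide, a secreted neuropeptide of the bombesin family. Tnc encodes tenascin-C, an extracellular matrix glycoprotein found where neurites grow and tissue is remodelled, and so is not itself a neuronal marker. Scg2 encodes secretogranin II, a cargo protein of dense-core vesicles, and Nefh encodes the heavy subunit of neurofilaments, the intermediate filaments of large axons.

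Promoters of 3 of the 5 members were matched by symbol in the RefSeq table of build GRCm38.p6, and they are shown because Atoh1 belongs to the basic helix-loop-helix factors, a class that binds E-boxes (CANNTG). Each line gives the 250 bases before the start site, with E-boxes in capitals. The Nos1 stretch is chr5:117866589-117866838 on the plus strand. Its listed start site, 117866839, lies inside the GENCODE gene, which begins upstream at 117781032. The whole Nos1 stretch thus lies within the annotated gene, and it is called a promoter here by its RefSeq listing only. Whether the Nos1 transcripts counted here begin at that site was not tested. The Tnc stretch is chr4:64047016-64047265 on the minus strand, before the farther upstream of 2 listed start sites. The Scg2 stretch is chr1:79440027-79440276 on the minus strand.
Nos1: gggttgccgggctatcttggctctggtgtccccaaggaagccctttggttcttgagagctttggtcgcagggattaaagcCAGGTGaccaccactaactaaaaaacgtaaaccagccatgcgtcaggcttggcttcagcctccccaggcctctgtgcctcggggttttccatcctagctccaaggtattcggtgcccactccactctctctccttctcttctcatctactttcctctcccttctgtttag
Tnc: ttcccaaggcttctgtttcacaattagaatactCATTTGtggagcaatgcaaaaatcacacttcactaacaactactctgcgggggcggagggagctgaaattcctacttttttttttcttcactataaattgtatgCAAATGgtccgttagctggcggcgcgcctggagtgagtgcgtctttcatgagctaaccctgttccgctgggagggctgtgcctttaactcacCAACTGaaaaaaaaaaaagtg
Scg2: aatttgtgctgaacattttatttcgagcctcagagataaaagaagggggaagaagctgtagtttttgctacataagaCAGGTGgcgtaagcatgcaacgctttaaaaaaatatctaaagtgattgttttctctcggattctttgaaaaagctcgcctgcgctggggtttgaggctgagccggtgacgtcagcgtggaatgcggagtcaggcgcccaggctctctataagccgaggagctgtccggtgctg
Nos1 had 1 E-box, CAGGTG, at position -170 from the listed start site. Tnc had 3 E-boxes, CATTTG at -217, CAAATG at -113 and CAACTG at -21. Scg2 had 1, again CAGGTG, at -173. Over 32851 promoters of the same table, 66.2% held a CANNTG on either strand, so its presence in these promoters is common. None of the promoters shown held CAGCTG, which 13% of all promoters held. The Gfi1 core AATC occurred in all of them, once each in Nos1 and Tnc and at 2 places in Scg2, and 69% of all promoters held it. The Scg2 stretch also held TGACGTCA, the cyclic AMP response element, at -68, in lower case above. It was searched for only after that promoter had been read, and 1.55% of all promoters held it.

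All 5 members were at least 2-fold higher in GAP than in control cells, where 13.6% of the 10152 genes at 10 CPM or more in a genotype were. Since that difference chose them, the count says nothing further, and Nefh lay under 10 CPM in both genotypes. The members split into 2 kinds. Nos1, Grp and Tnc were spread over many GAP cells of both letters and almost absent from control cells. The pooled levels of Scg2 and Nefh rested on 1 GAP cell each, so the description as neuron-associated genes raised by GAP did not hold evenly over the 5 genes.

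Nos1 (chr5:117781032-117958840, plus strand) had 95.9 CPM in GAP letter C and 126.02 CPM in GAP letter D, against 0 in control letters A and B. Over the genotypes this was 588 UMIs or 109.6 CPM (95% interval 100.9 to 118.8) in GAP cells and 0 UMIs in control cells, where 3 counts would be 0.750 CPM. Set against those 3 counts the level was 146.1-fold higher in GAP, and the exact conditional-binomial 95% interval of the ratio began at 118.5. Both GAP letters lay far above both control letters, and 39 of 92 GAP cells of letter C and 40 of 88 of letter D had a Nos1 UMI. It was 1 of 10 genes of the matrix with at least that many UMIs in GAP cells and none in control cells.

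Grp lies on chromosome 18 (chr18:65872820-65886596, plus strand). Its level was 100.7 CPM in GAP letter C and 71.01 CPM in GAP letter D, against 0 in both control letters. The pooled level was 87.2 CPM in GAP cells (79.5 to 95.5, 468 UMIs) and 0 in control cells. Against 3 control counts this was 116.3-fold higher in GAP, with an exact interval that began at 94.2. A UMI was found in 45 of 92 GAP cells of letter C and 31 of 88 of letter D. In CPM, Grp lay below Nos1 at 109.6 and Tnc at 109.01 in GAP cells. Per kilobase of annotated exon, its level was the highest of the members in GAP cells at 59 CPM per kilobase. Tnc had 14, Scg2 12.1, Nos1 9.83 and Nefh 2.01. That scale assumes that UMIs rise with exon length, which was not tested. Without the top GAP cell of each gene, Scg2 had 2.60 and Nos1 had 9.24 CPM per kilobase.

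Tnc (chr4:63959785-64047015, minus strand) had 123.2 CPM in GAP letter C and 91.9 CPM in GAP letter D, against 0 in control letter A and 0.496 CPM in control letter B. Pooled, it had 109.01 CPM in GAP cells (100.4 to 118.2, 585 UMIs) and 0.250 CPM in control cells, from 1 UMI in 1 cell of letter B. The ratio was 436, with an exact conditional-binomial interval of 78 to 17258 set by that single control UMI. Tnc was found in 53 of 92 GAP cells of letter C and in 26 of 88 of letter D, the widest gap between the GAP letters among these 3 genes. Letter C was deeper, with a median of 31683 UMIs per cell against 27394 in letter D. With cells thinned to 8000 UMIs, Tnc was found in 31.5% of letter C (22.2 to 42%) and 21.6% of letter D (13.5 to 31.6%). Those intervals overlap, and Grp had 25% in letter C and 15.9% in letter D. The CPM intervals of the GAP letters did not overlap. Tnc had 110.8 to 136.6 CPM in letter C and 80.3 to 104.8 in D, and Grp 89.5 to 112.8 in C and 60.8 to 82.4 in D. Nos1 went the other way, with 85 to 107.8 CPM in C and 112.3 to 140.9 in D. The part of depth in these gaps was not tested. Gm26995 and 8030451A03Rik, which share exon bases with Nos1 and Tnc in GENCODE M21, had 0 UMIs in every cell, and the use of strand in counting is not given in the sources used here.

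Scg2 (chr1:79434669-79440120, minus strand) had 6.48 CPM in GAP letter C and 59.1 CPM in GAP letter D, against 12.1 CPM in control letter A and 2.48 CPM in control letter B. The letters of the 2 genotypes overlapped, with GAP letter C below control letter A. The pooled level was 30.4 CPM in GAP cells (25.9 to 35.4) and 7.25 CPM in control cells (4.85 to 10.4, 29 UMIs), 4.19 times as high in GAP (2.81 to 6.46). A single GAP cell, the cell of letter D and well 45 (D45), held 78.5% of the UMIs in GAP cells, at 5323 CPM of its own total. Without it the level was 6.55 CPM in GAP cells against the same 7.25 CPM in control cells, and their ratio was 0.904 (0.537 to 1.53). The control level rested on 1 cell as well, since A10 held 72.4% of the control UMIs. That ratio keeps A10, and a ratio without both cells was not computed. Before thinning, 18 of 180 GAP cells and 4 of 180 control cells had an Scg2 UMI. Without letter D the ratio was 0.895, without A 12.3, without B 2.51 and without C 8.16.

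Nefh (chr11:4938754-4948064, minus strand) had 13 CPM in GAP letter C and 2.05 CPM in GAP letter D, against 0 in both control letters. The pooled level was 8.01 CPM in GAP cells (5.80 to 10.8, 43 UMIs) and 0 in control cells. Against 3 control counts this was 10.7-fold higher in GAP, with an exact interval that began at 8.32. One GAP cell of letter C, C63, held 27 of the UMIs. Without that cell 16 UMIs in 8 GAP cells remained, or 2.99 CPM. That was 3.99-fold over 3 control counts, with an interval that began at 2.89. The ratio against 3 control counts was 2.74 without letter C, with an interval from 1.51, and 17.3 without letter D, with an interval from 13.4.

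**Figure D1:**
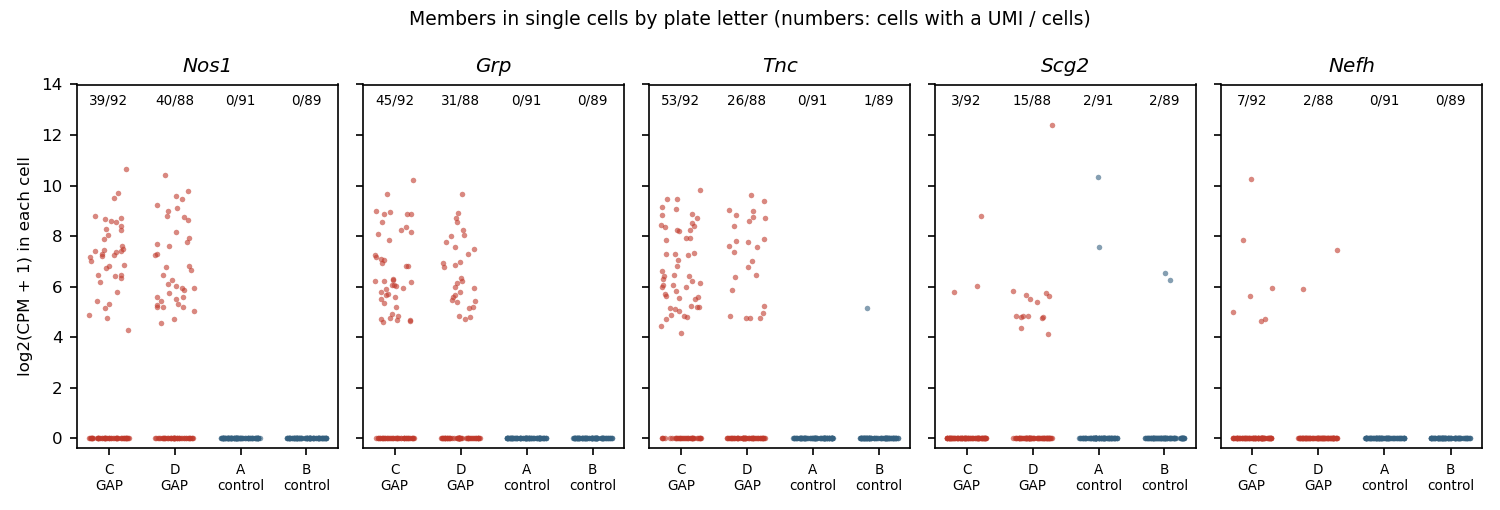
Level of each member in each cell, as log2 of CPM with 1 added, by letter, with GAP letters C and D in red and control letters A and B in blue; the numbers at the top give cells with a UMI out of all cells. Nos1, Grp and Tnc form clouds in both GAP letters, while the highest points of Scg2 and Nefh are single cells.

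Deeper cells yield more genes, so every cell was thinned at random to 8000 UMIs, which left out 3 control cells and no GAP cell. At that depth Nos1 and Tnc were each found in 48 of 180 GAP cells, or 26.7% (exact interval 20.4 to 33.8%), and Grp in 37, or 20.6% (14.9 to 27.2%). Of the 89 control cells kept in letter A and the 88 in letter B, none had a UMI of Nos1, Grp, Tnc or Nefh, which allows a share of cells with a UMI of up to 1.69% over both from a limit of 3 cells, or 2.06% as the upper end of the exact interval. Before thinning the shares of GAP cells were 43.9% for Nos1, 42.2% for Grp and 43.9% for Tnc. Scg2 was found in 6 GAP cells, or 3.33% (1.23 to 7.11%), and in 1 control cell, or 0.565% (0.0143 to 3.11%), intervals that overlap. Nefh was found in 4 GAP cells, or 2.22% (0.609 to 5.59%).

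The spread over cells set the members apart. In GAP cells the one with most UMIs held 6.46% of the Nos1 UMIs, 8.97% of the Grp UMIs and 5.30% of the Tnc UMIs, against 78.5% for Scg2 and 62.8% for Nefh. It took 12 GAP cells to hold at least 50% of the Nos1 UMIs, 11 for Grp and 14 for Tnc, but 1 cell each for Scg2 and Nefh. Over 11787 genes with at least 20 UMIs in GAP cells, the median gene had 6.32% in its top cell and needed 15 cells. Of these genes, 48.8% were at least as concentrated as Nos1, 33.5% as Grp and 59.5% as Tnc. For Scg2 that share was 0.204% and for Nefh 0.458%. The genes were not matched for level, and a low count alone raises the share in the top cell. How Nos1, Grp and Tnc compare with genes of their own level was not tested.

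**Figure D2:**
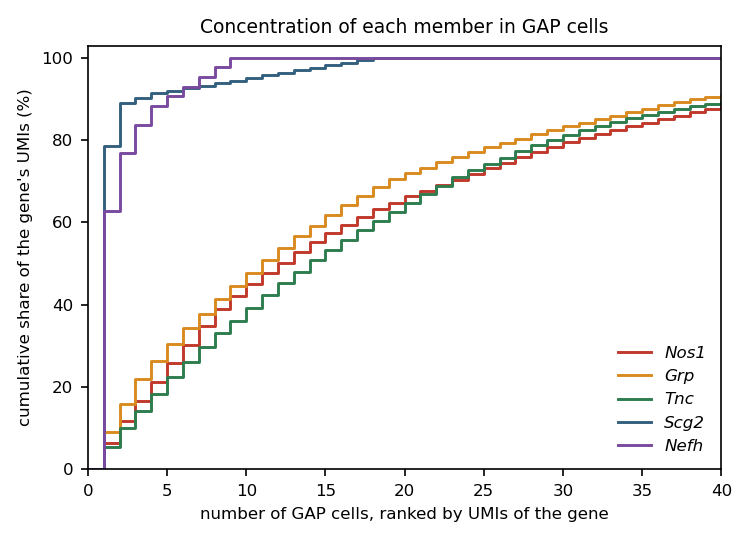
Cumulative share of the UMIs of each member (percent) against the number of GAP cells, ranked by their UMIs of that gene. The lines of Scg2 and Nefh start at 78.5% and 62.8% with the first cell, while Nos1, Grp and Tnc climb slowly and reach 50% at 12, 11 and 14 cells.

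The other GAP cells with Scg2 mostly had single UMIs. In GAP letter D, 14 cells had 1 or 2 Scg2 UMIs beside the high count of D45, and in GAP letter C 2 cells had 1 beside the 17 UMIs of cell C16. In the control cells, A10 had 21 Scg2 UMIs, and the other 3 cells with the gene had 3, 3 and 2. For Nefh, 5 GAP cells of letter C had 1 UMI and C18 had 6, beside the 27 of C63, and 2 GAP cells of letter D had 3 and 2. Whether single UMIs under the letter of a very high cell belong to the cells they are listed in was not tested.

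The 2 cells that carried these pooled levels differed. C63 was placed in cluster 2 and had 16 Atoh1, 3 Gfi1 and 13 Pou4f3 UMIs. At 8000 UMIs it held 9 of 25 genes of the neuron and spiral ganglion list, members left out, the most of any GAP cell, where the median was 2. Among them, named because this cell had them, were the synaptic protein gene Snap25 with 13 UMIs, the neurotrophin receptor gene Ntrk3 with 7, and the filament genes Ina with 4 and Nefm with 3. The same cell held 15 of 47 hair cell genes, against a median of 10 in GAP cells, and 0 of 26 neuronal transcription factor genes. D45 was placed in cluster 3, which the authors named WT cells and which held 5 GAP and 29 control cells, and it had 1 Atoh1, 2 Gfi1 and 2 Pou4f3 UMIs. It held 0 of 18 other genes of the granin and dense-core vesicle list, 2 of the 25 neuron genes and 4 hair cell genes. Its summed level of fibroblast and tympanic border genes was 3618 CPM, against a median of 22.5 CPM in GAP cells and a range of 0 to 3367 CPM, with a median of 713 CPM, in the control cells of cluster 3, and the part of that list in the Scg2 level was not tested.

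By the authors' clusters, which were built from these counts and so allow no test, Nos1 was highest in cluster 1 at 191.6 CPM (171.8 to 213), followed by cluster 2 at 105.9 CPM (89.8 to 124.1). Cluster 8, which held 10 GAP and 7 control cells, followed at 66.5 CPM (44.8 to 94.9), an interval that overlapped that of cluster 2. Within cluster 8 the level was 122.8 CPM (82.8 to 175.3) in GAP cells and 0 in control cells. Of these, 25 of the 30 UMIs came from 1 GAP cell, C59, which had 1 Atoh1, 0 Gfi1 and 1 Pou4f3 UMIs, and the other GAP cells of cluster 8 had 21.8 CPM (7.09 to 51). Cluster 7 had 20.5 CPM (8.23 to 42.2), not apart from cluster 5 at 8.75 CPM (3.21 to 19.1). Cluster 5 held 13 cells of each genotype, and its Nos1 level was 17.1 CPM in GAP cells and 0 in control cells. Clusters 0, 3, 4 and 6 had at most 4.404 CPM.

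Grp had another order. It was highest in cluster 1 at 157.8 CPM (139.8 to 177.4), then in cluster 7 at 84.8 CPM (56.8 to 121.8) and then in cluster 2 at 33.9 CPM (25.1 to 44.8), with none of these intervals overlapping. The second place rested on 1 cell, C3, which held 21 of the 29 UMIs of cluster 7, and without it cluster 7 had 25.3 CPM (10.9 to 49.9), an interval that holds the level of cluster 2. Cluster 7 had 156.1 CPM in GAP letter C and 30.8 CPM in GAP letter D. Clusters 1 and 2 each had a similar level in the GAP letters, and cluster 1 reached 168.8 (letter C) and 145.1 CPM (letter D), while cluster 2 reached 33.2 (letter C) and 34.4 CPM (letter D).

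Tnc did not separate clusters 1 and 2, which had 142.6 CPM (125.5 to 161.2) and 129.5 CPM (111.6 to 149.4), and cluster 7 lay lower at 46.8 CPM (26.8 to 76). The order of the first 2 differed between letters. In GAP letter C, cluster 1 had 130.8 CPM and cluster 2 had 227 CPM, while in GAP letter D cluster 1 had 156.01 CPM and cluster 2 had 65.3 CPM. Every other cluster had 3.19 CPM or less. The 17 GAP cells that the authors left without a cluster had 141.99 CPM of Tnc, 118.9 CPM of Grp and 49.6 CPM of Nos1, levels in the range of clusters 1, 2 and 7. They were deep, with 42346 to 60218 UMIs per cell against a GAP median of 28963. Whether any of them held more than 1 cell was not tested, and they entered the pooled levels. The 15 GAP cells in clusters 0, 3, 4 and 6, which consisted mostly of control cells, had 26.2 CPM of Nos1, 14.6 CPM of Grp and 11.6 CPM of Tnc. Of these, 8 of 9 Nos1 UMIs lay in cell C6 and 3 of 4 Tnc UMIs in cell C4, and without those cells 3.23 CPM of Nos1 and 3.30 CPM of Tnc were left.

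At 8000 UMIs, Nos1 was found in 40.7% of the cells of cluster 1 (27.6 to 55%), 25.5% of cluster 2 (14.3 to 39.6%) and 10% of cluster 7 (1.23 to 31.7%). Grp was found in 33.3% of cluster 1 (21.1 to 47.5%), 17.6% of cluster 2 (8.40 to 30.9%) and 10% of cluster 7. Tnc was found in 33.3% of cluster 1 and of cluster 2 alike (20.8 to 47.9% in cluster 2) and in 20% of cluster 7 (5.73 to 43.7%). All these intervals overlapped between clusters, so the shares did not rank the clusters at this number of cells.

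Scg2 and Nefh followed their single cells. Scg2 was highest in cluster 3 at 144.7 CPM, nearly all of it from D45, and next in cluster 2 at 17.3 CPM, where C16 held 17 of 25. The control cells of cluster 3 had 9.89 CPM of Scg2, in 3 of 29 cells. Nefh was highest in cluster 2 at 24.9 CPM, with 27 of 36 UMIs in C63, and no other cluster exceeded 2.92 CPM.

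**Figure D3:**
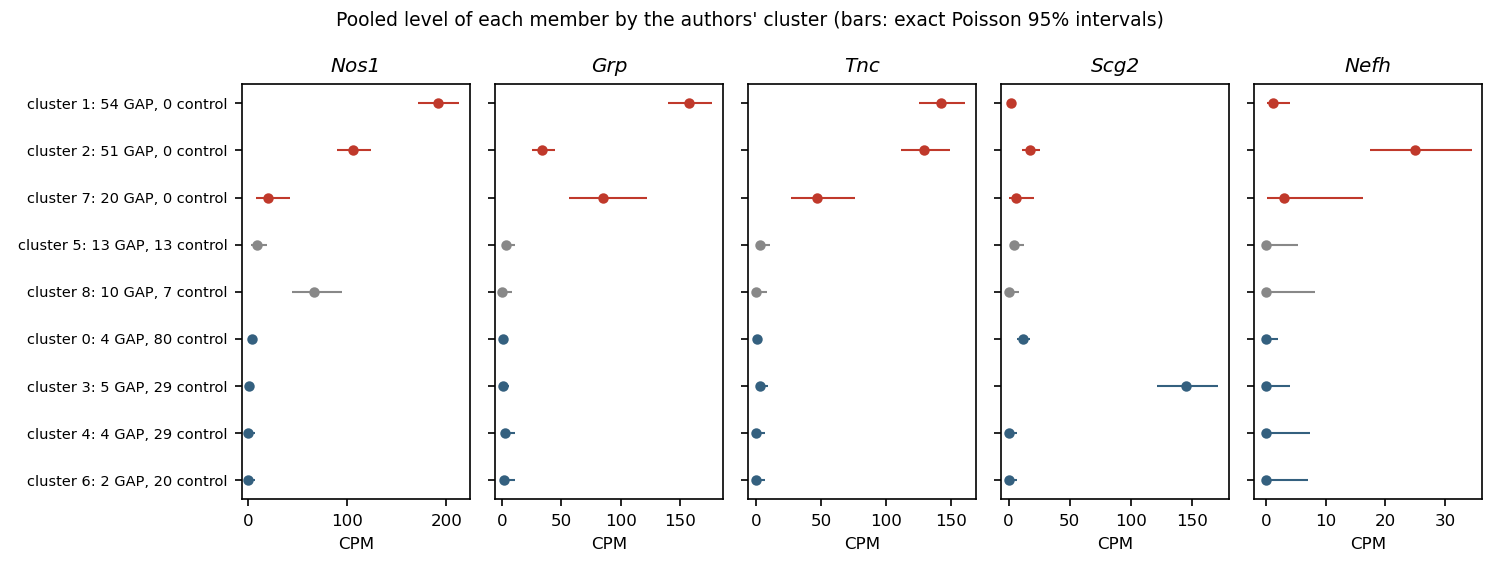
Pooled level of each member in CPM (horizontal axis, a separate scale for each gene) by the authors' cluster, with exact Poisson 95% intervals; red marks clusters of GAP cells alone, grey the mixed clusters 5 and 8, and blue clusters of mostly control cells. Nos1 and Grp are highest in cluster 1, Tnc is equally high in clusters 1 and 2, and Scg2 peaks in cluster 3 through 1 cell.

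The members occurred partly in the same cells. At 8000 UMIs, 88 of 180 GAP cells held none of the 5, 53 held 1, 27 held 2 and 12 held 3, and no cell held 4 or 5. Without thinning, 44 GAP cells held none, 55 held 1, 41 held 2, 36 held 3 and 4 held 4. Of the control cells, all but 1 of those kept at that depth held none. Nos1 and Tnc shared 22 cells, 45.8% of the 48 cells of each. Grp and Tnc shared 19, which were 51.4% of the Grp cells and 39.6% of the Tnc cells, and Nos1 and Grp shared 13, which were 27.1% of the Nos1 cells and 35.1% of the Grp cells. Of the 4 cells with Nefh, 3 also had Tnc and 3 had Nos1. None of the 6 cells with Scg2 at 8000 UMIs had Tnc at that depth. Before thinning some cells had both, such as C16 with 17 Scg2 and 5 Tnc UMIs and D41 with 1 and 7.

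Whether the members sat in the cells with hair cell genes was read from the number of hair cell genes with a UMI per GAP cell, out of 47 genes and at 8000 UMIs. The median was 10 in GAP cells and 3 in control cells. GAP cells with Tnc had a median of 16 hair cell genes (quartiles 12 and 21.5), against 9 (7 and 11) in GAP cells without it. With Grp the median was 15 (12 and 19), against 9 (7 and 12) without it. The quartile ranges did not overlap for Tnc and met at 12 for Grp, although single cells did overlap. For Nos1 the medians were 11 with and 10 without, with quartile ranges of 8 to 16 and 7 to 14. For Scg2 and Nefh they were 10.5 with and 10 without, from 6 and 4 cells.

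The relation of Tnc and Grp to the number of hair cell genes held inside clusters as well. In cluster 2 the median was 20 with Tnc and 10 without, and 16 with Grp and 10.5 without. In cluster 1 it was 13.5 with Tnc and 11 without, and 15 with Grp and 10.5 without. Nos1 differed between these clusters, with medians of 20 with and 10.5 without in cluster 2, but 11 with and 12 without in cluster 1. Within cluster 2 the gap was larger in letter C, at 27 with Nos1 (6 cells) and 12.5 without. In letter D it was 12 with Nos1 (7 cells) and 10 without. Over all 180 GAP cells, Pearson's r between log2 of CPM with 1 added and the number of hair cell genes was 0.61 for Tnc, 0.50 for Grp, 0.25 for Nos1, 0.12 for Nefh and 0.04 for Scg2. These describe cells of 1 sample. The level of Tnc also ran with the log2 total UMIs of the cell, with r of 0.37, as did that of Grp with 0.30, and the part of depth beyond the thinning was not tested.

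**Figure D4:**
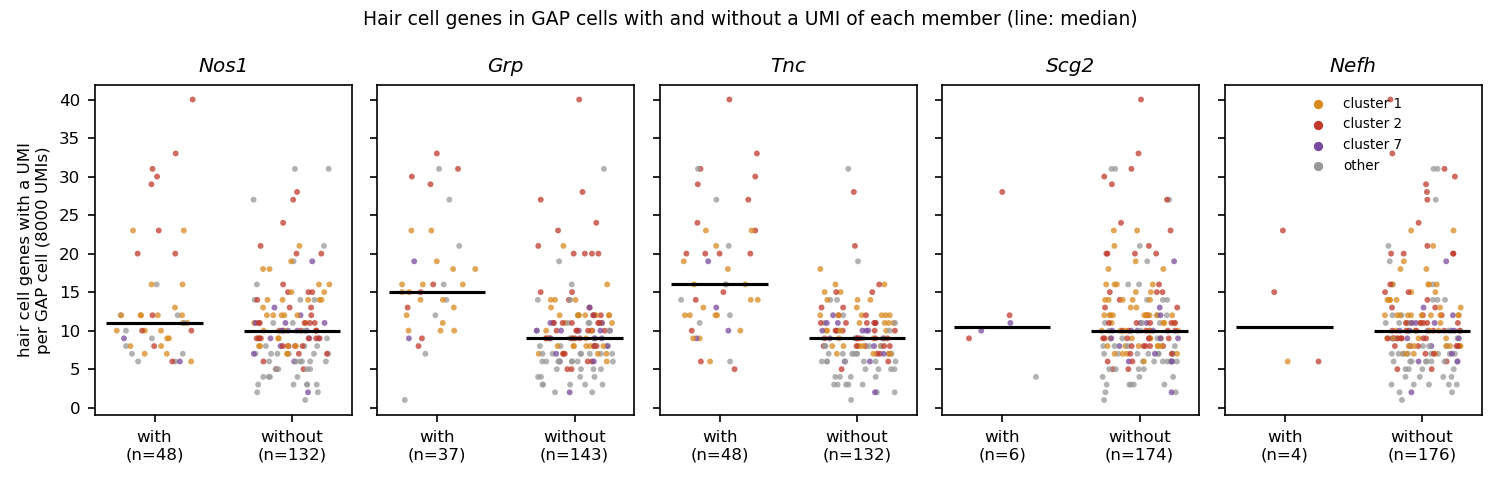
Number of hair cell list genes with a UMI in each GAP cell at 8000 UMIs (vertical axis), for GAP cells with and without a UMI of each member, coloured by the authors' cluster, with the median as a line. The medians stand at 16 and 9 for Tnc and 15 and 9 for Grp, and are within 1 gene of each other for the other members.

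Of single hair cell genes, only Ptprq, Pcp4 and Myo6 are given here. Each was found more often in GAP cells with Tnc than in those without. They are a selection and do not stand for the hair cell list. Ccer2, Triobp, Rasd2, Pcdh15 and Cib2 were also among the hair cell genes with most UMIs. Their shares with and without each member are not given, so the direction for those genes is not stated. Ptprq, a phosphatase of the hair bundle, was found in 75% of the 48 GAP cells with Tnc and in 28.8% of the others. With and without Grp the shares were 56.8% and 37.1%, and with and without Nos1 they were 50% and 37.9%. Pcp4, a calmodulin-binding protein gene, was found in 52.1% of GAP cells with Tnc and 24.2% of those without. Myo6, the gene of an unconventional myosin of hair cells, had a UMI in all 48 Tnc cells and in 87.1% of the other GAP cells. Of the transgene symbols, Pou4f3 and Gfi1 are given and were also found more often in GAP cells with Tnc. The shares for Atoh1 are not given, so its direction is not stated. Pou4f3 was found in 93.8% of Tnc cells and 69.7% of the others, and in 81.2% of Nos1 cells and 74.2% of the others. Gfi1 was found in 83.3% of Tnc cells and 55.3% of the others.

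Among the genes whose level over the 180 GAP cells was most like that of Tnc were Myo15 (r = 0.52), Myo3b (0.51), Tmem173 (0.50) and Tjap1 (0.50), out of 9374 genes compared with a median r of 0.08. Myo15 and Myo3b encode stereocilia myosins. For Grp they were Dlk2 (0.50), the Notch ligand gene Jag2 (0.44), Tnc (0.44), Chrna10 (0.43), a subunit of the hair cell acetylcholine receptor, and Lmod1 (0.43). For Nos1 the highest were Rassf4 (0.39), Abcc8 (0.37), Ace (0.36), Ccer2 (0.36) and Dhx32 (0.33). For Scg2 the highest r was 0.29 and for Nefh 0.32, from 18 and 9 GAP cells with a UMI, and these are not read as a pattern.

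Genes around the members are given next by list, with a gene counted as measured at 10 CPM or more in a genotype. Of all 10152 measured genes, 13.6% were at least 2-fold higher in GAP, 7.13% at least 2-fold lower, and the median log2 ratio was 0.10. In the neuron and spiral ganglion list 5 of 26 genes were measured, of which 2 were at least 2-fold higher and none lower, with a median log2 ratio of 0.54. These were the neurotrophin receptor gene Ntrk2, at 86.8 CPM in GAP cells and 10.5 CPM in control cells, 8.27 times as high (6.03 to 11.6), and Dpysl3, which encodes a protein of growing axons, at 37.5 CPM in GAP cells against 7 CPM in control cells, which makes 5.35 times (3.59 to 8.26). Map2, Mapt and Gata3 had ratios of 1.45, 0.938 and 0.898.

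Many genes of the neuron list lay under 10 CPM in both genotypes. Of its 25 genes other than Nefh, 8 had no UMI in GAP cells and 14 had none in control cells. Without the filter of 10 CPM, and with Nefh, 19 genes had a UMI, of which 9 were higher in GAP by 2-fold or more and 2 were lower by as much. Snap25 had 41 UMIs in 13 GAP cells, Nefm 25 in 8, Ina 9 in 3 and Stmn2 4 in 1, and each had 0 UMIs in control cells. Part of these lay in the cells with most Nefh. C63 held 13 of the Snap25, 3 of the Nefm, 4 of the Ina and all 4 of the Stmn2 UMIs. C18 held 5 Snap25 and 4 Ina UMIs. Other defining genes of neurons were at or near 0. Tubb3, Elavl4, Nefl, Gap43, Nrn1, Th and Scn1a had 0 UMIs in both genotypes, Elavl3 and Uchl1 had 1 UMI in GAP cells and 0 in control cells, and Prph had 0 UMIs in GAP cells and 1 in control cells. The summed level of the list without Nefh was 1103 CPM in GAP letter C and 1181 CPM in GAP letter D, against 956 CPM in control letter A and 1079 CPM in control letter B. Most of it was Gata3, which supporting cells of the cochlea also express. In the list of neuronal transcription factors 5 of 26 genes were measured and 2 were at least 2-fold higher. Nhlh1 had 36.2 CPM in GAP cells and 1.25 CPM in control cells, 28.9 times as high (12.2 to 90.1). Barhl1, which also acts in hair cells, had 11.4 CPM in GAP cells and 0 in control cells. Against 3 control counts Barhl1 was 15.2-fold higher, with 42.6% of its UMIs in 1 cell. Neurog1 and Neurod1, which act in the formation of spiral ganglion neurons, had 0 UMIs.

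Grp stood alone among the 20 genes of neuropeptides and their receptors. It was the only one measured, and Nmb, Nmbr and Penk, the next by UMIs, had 3, 1 and 2 UMIs in GAP cells and 0, 1 and 1 in control cells. The granin and dense-core vesicle list had 6 of 19 genes measured, with 3 at least 2-fold higher, 1 lower and a median log2 ratio of 1.12. These figures include Scg2, which passed the filter through D45, and without it they were 5 of 18 measured, 2 higher, 1 lower and a median of 0.31. Beside Scg2 the higher genes were Cpe, the gene of a carboxypeptidase that trims prohormones, at 155.4 CPM in GAP cells and 37 CPM in control cells, 4.20 times as high (3.52 to 5.04), and Scg5, at 22.4 CPM in GAP cells and 4.25 CPM in control cells. Pam, whose enzyme amidates peptides, had 22.7 CPM in GAP cells and 53.2 CPM in control cells, a ratio of 0.427.

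Of the nitric oxide list 14 of 23 genes were measured, with 2 higher, 1 lower and a median of 0.29, or 1 higher, 1 lower and 0.28 without Nos1. Nos1 was the only synthase measured, since Nos2 had 1 UMI in GAP cells and 2 in control cells and Nos3 had 2 in GAP cells and 0 in control cells. Genes that supply substrate or bind the enzyme moved less, with ratios of 1.35 for the arginine transporter gene Slc7a1, 1.09 for Dynll1 and 1.20 for Qdpr. In the synthesis of the cofactor tetrahydrobiopterin, Pts had 33.5 CPM in GAP cells and 16.5 CPM in control cells, a ratio of 2.03, while Spr had 11.7 CPM in GAP cells and 37 CPM in control cells, a ratio of 0.317. Scg5, Barhl1, Pts, Spr, Fn1, Snap25, Nefm, Ina and Stmn2, and the neuron genes at or near 0, are named because of their values.

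Of the list of tenascins, partners and integrins 11 of 20 genes were measured, with 3 higher, none lower and a median of -0.01, or 2 higher and a median of -0.18 without Tnc. The number lower was 3 without letter A, 2 without D and 1 without C. Ptprz1, the gene of a receptor phosphatase that binds tenascin-C, had 253 CPM in GAP cells and 23 CPM in control cells, 11 times as high (8.92 to 13.8). Fn1, the fibronectin gene, had 35.2 CPM in GAP cells and 0.750 CPM in control cells, with 46% of its GAP UMIs in 1 cell. Sdc4, Cntn1 and Egfr had ratios of 0.519, 0.553 and 0.990. No other tenascin gene was measured. Of the filament list 4 of 13 genes were measured and none was 2-fold higher or lower (2 higher and 2 lower of 6 without letter D), with ratios of 1.62 for Krt8, 1.73 for Krt18, 0.611 for Vim and 0.974 for Sync. Nefm had 25 UMIs in GAP cells and 0 in control cells, and Nefl had 0 in both. For comparison, 38 of 40 measured hair cell genes were at least 2-fold higher in GAP, with a median log2 ratio of 4.11.

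**Figure D5:**
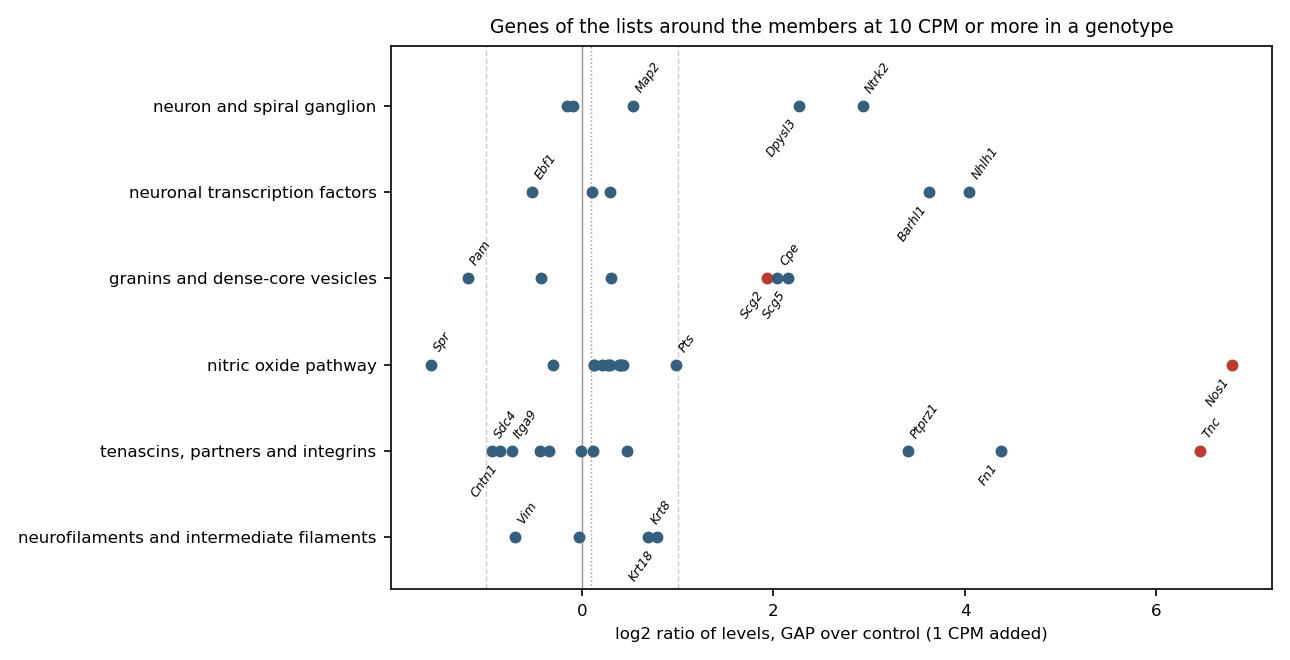
Log2 ratio of levels, GAP over control with 1 CPM added, for each measured gene of 6 lists, with members in red; dashed lines mark 2-fold and the dotted line the median of all measured genes at 0.10. Nos1 and Tnc stand far to the right of every other gene of their lists, of which Ptprz1 and Fn1 are the next in the tenascin list, and names are given for members and for genes at least 0.5 from 0.

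Other cells that the sort could hold were read from their own lists, summed by letter. Schwann and satellite glia genes came to 244 CPM in GAP letter C and 246 CPM in GAP letter D, against 411 CPM in control letter A and 323 CPM in control letter B. Fibroblast and tympanic border genes came to 128.7 CPM in GAP letter C and 188 CPM in GAP letter D, against 358 CPM in control letter A and 352 CPM in control letter B. Erythroid genes came to 178.1 CPM in GAP letter C and at most 1.23 CPM in the other letters. Endothelial and pericyte genes came to 131.7 CPM in GAP letter C and 161.7 CPM in GAP letter D, against 53.4 CPM in control letter A and 0.991 CPM in control letter B. Leukocyte genes came to at most 29.7 CPM, and melanocyte and stria genes lay between 202 and 355 CPM in every letter. The part of these lists in the members' levels was not tested.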

How the data were processed

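The authors deposited UMI counts over exons for every gene and cell, without normalization. Per the submitters' processing notes, STAR, HTSeq and the mm10 build were used. Neither versions, annotation nor strand setting are stated in those sources. Cluster assignments were used as the authors deposited them, and all 360 cells entered comparisons of genotypes. Members were taken by gene symbol, and positions come from GENCODE M21. The members and the gene lists were chosen with earlier results of these data known.

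UMIs were summed over cells and scaled to CPM (Python 3.11.15, numpy 2.4.6, pandas 2.3.3, scipy 1.17.1). Levels have exact Poisson, ratios exact conditional-binomial and shares exact Clopper-Pearson 95% intervals, which cover counting error only. Where no UMI was counted, the limit printed is that of 3 counts, and ratios were set against 3 counts. Cells were thinned to 8000 UMIs with a fixed seed, and log2 ratios add 1 CPM. With 1 sample per genotype differences are described without tests or p-values. Cells were sorted singly, no doublet caller was run, and no 2 columns of counts were identical. Code was tested on simulated data. Alternatives were TMM scaling (edgeR 4.0.16 in R 4.3.3, used for scaling only), median of ratios, other depths, filters and pseudocounts, and leaving out each letter.

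Genes named beside the members were taken from the 4 genes with most UMIs of each list (8 of the neuron and hair cell lists). For each member, names also came from the 5 genes of highest Pearson r over GAP cells, given a UMI in at least 20 of them. Of these, 1 gene is not reported here. Other names are said to follow from their values.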

Additional observations from a re-analysis of the deposited data

How the results depend on the processing

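The pseudocount sets the log2 ratio of a gene with few or no control UMIs. With 10 CPM added the log2 ratios were 3.58 for Nos1, 3.28 for Grp, 3.54 for Tnc, 1.23 for Scg2 and 0.85 for Nefh, and with 0.1 CPM they were 10.1 for Nos1, 9.77 for Grp, 8.28 for Tnc and 6.34 for Nefh, against 6.79, 6.46, 6.46, 1.93 and 3.17 for the 5 genes with 1 CPM. Among cells with a cluster Nos1 had 6.93. The log2 ratio of Scg2 was -0.13 without the GAP cell with most of its UMIs, with all control cells kept. Leaving out 1 letter gave log2 ratios of 6.60 to 6.99 for Nos1, 6.17 to 6.67 for Grp, 6.20 to 6.78 for Tnc, -0.14 to 3.17 for Scg2 (lowest without D) and 1.61 to 3.804 for Nefh. The count of members at least 2-fold higher was 5 under every alternative run except 4 without letter D and 4 without each member's top GAP cell, and was not run on per-cell means or other pseudocounts. Background counts were 2972 genes at 1 CPM and 488 at 50 CPM, against 1382.

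Shares of GAP cells without thinning were 43.9% for Nos1, 42.2% for Grp, 43.9% for Tnc and 10% for Scg2, and with 2 or more UMIs required 14.4%, 10.6%, 17.8% and 1.11% for the same genes. The top cell's share at 8000 UMIs was 8.89% for Nos1 and 84.9% for Scg2, and with 1 GAP letter left out it was 9.96 to 12.4% for Nos1, 14.2 to 18.5% for Grp, 6.93 to 13.8% for Tnc, 88.9 to 89.5% for Scg2 and 60 to 71.1% for Nefh. The log2 ratio of cluster 1 over cluster 2 was 0.31 in letter C and 1.30 in D for Nos1 (both letters 0.85), -0.79 in C and 1.24 in D for Tnc (0.14), -4.94 in C for Scg2 (-2.77) and -1.72 in D for Nefh (-3.61). The mean number of hair cell genes in GAP cells with Scg2 minus those without was -1.32 at 4000 UMIs and -1.27 in letter D, against 0.86. For Nefh it was 7.96 at 4000 UMIs, -4.26 in letter D and -1.02 with 2 or more UMIs, against 1.02, from at most 4 cells. For Tnc and Grp it stayed positive under all 5 alternatives, at 4.72 to 9.65 for Tnc and 2.92 to 7.64 for Grp.

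Without the filter of 10 CPM, genes at least 2-fold higher numbered 9 in the neuron list, 4 in that of neuronal transcription factors, 9 in granins, 5 in tenascins and 5 in filaments, and at 50 CPM 1 in the neuron list, 0 in transcription factors, 1 in granins and 1 in nitric oxide genes. With 1 letter left out the counts were 2 to 5 for neuron genes (5 without D), 1 to 3 for transcription factors (1 without D), 1 to 2 for nitric oxide genes (1 without A), 3 to 4 for tenascins and 0 to 2 for filaments (2 without D, 1 each without A and B). Genes at least 2-fold lower numbered 0 to 3 for tenascins (3 without A) and 0 to 2 for filaments (2 without D). The cause was not tested. No paired analysis was possible because the well numbers shared by the letters do not pair cells and the results come from no test. Lists without their members, and clusters and levels per kilobase without the top cell, were added after seeing the data. Variation between animals could not be measured.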
